A study of Mus musculus with 12 samples.

Results

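The Islr-Stra6 locus is a stretch of mouse chromosome 9 that holds 8 genes described here across regulatory T cells of 2 genotypes. Islr and Stra6 were picked because both were lower in NOD.Drak2-/- than in NOD on these same arrays, and Ubl7, Sema7a, Islr2, Pml, Stoml1 and Loxl1 because they lie near them and have a row in the table. All 8 members of the 19505 genes measured had a row, 1 each. Expression was measured by 1-colour array in lymph node cells sorted as CD4+ CD8- CD25+ CD45RBlo, a gate for the T cells that hold immune responses in check; the antibodies listed for the sort are against CD4, CD8 and CD45RB. There were 6 arrays of NOD mice, which become diabetic through autoimmunity, and 6 of NOD.Drak2-/- mice, which by their label lack Drak2, the kinase encoded by Stk17b. All mice were females of 4 to 8 weeks, and by the labels each array is a biological replicate from its own mouse. No source used here says how the deletion was brought onto the NOD background, which part of the gene it removes, or whether controls were littermates.

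The members have little in common beyond their place. Islr encodes a secreted protein with leucine-rich repeats and an immunoglobulin domain, best known as a marker of mesenchymal stromal cells, and Islr2 is its membrane-bound relative, studied mostly in neurons. Stra6 encodes the cell surface receptor that takes up retinol from retinol-binding protein, and its name records that retinoic acid induces it. Retinoic acid, made from retinol, acts through nuclear receptors and is known in T cells for gut homing and for favouring regulatory T cells. Pml builds nuclear bodies and is an interferon-induced gene. Sema7a is a membrane-anchored semaphorin found on activated lymphocytes, Loxl1 cross-links elastin outside cells, Stoml1 is a membrane protein of the stomatin family, and Ubl7 carries a ubiquitin-like and a ubiquitin-binding domain.

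Along chromosome 9, RefSeq (assembly GRCm38.p6) places the measured genes in the order Ubl7, Sema7a, Cyp11a1, Ccdc33, Stra6, Islr, Islr2, Pml, Stoml1 and Loxl1. Stra6 and Islr are direct neighbours among measured genes and are transcribed towards each other, Stra6 from the plus and Islr from the minus strand. Islr2 and Pml, next to Islr, are also on the minus strand. Promoter windows of 300 bases, from 250 before to 50 after a start, were held for 7 of the 8 members in the RefSeq table. The windows of Islr and of the most upstream Stra6 start (1 of 4) are shown because these genes are the pair with the large differences. Those of Pml and Ubl7 are shown because these neighbours were far above background on every array. All are from GRCm38.p6 and read 5′ to 3′ on the gene's strand, and capitals mark each CG dinucleotide.
Islr, chr9:58158505-58158804, minus strand: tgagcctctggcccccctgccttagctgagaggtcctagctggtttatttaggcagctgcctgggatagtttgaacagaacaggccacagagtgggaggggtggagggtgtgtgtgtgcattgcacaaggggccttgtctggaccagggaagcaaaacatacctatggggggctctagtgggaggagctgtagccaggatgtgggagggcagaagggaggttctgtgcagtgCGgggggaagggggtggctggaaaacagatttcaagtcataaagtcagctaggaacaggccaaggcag
Stra6, chr9:58128838-58129137, plus strand: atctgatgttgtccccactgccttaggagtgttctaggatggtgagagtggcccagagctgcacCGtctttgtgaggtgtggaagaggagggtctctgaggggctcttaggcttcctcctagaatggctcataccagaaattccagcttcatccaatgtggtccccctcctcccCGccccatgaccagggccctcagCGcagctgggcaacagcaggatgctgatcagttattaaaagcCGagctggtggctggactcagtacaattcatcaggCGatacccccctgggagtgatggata
Pml, chr9:58249737-58250036, minus strand: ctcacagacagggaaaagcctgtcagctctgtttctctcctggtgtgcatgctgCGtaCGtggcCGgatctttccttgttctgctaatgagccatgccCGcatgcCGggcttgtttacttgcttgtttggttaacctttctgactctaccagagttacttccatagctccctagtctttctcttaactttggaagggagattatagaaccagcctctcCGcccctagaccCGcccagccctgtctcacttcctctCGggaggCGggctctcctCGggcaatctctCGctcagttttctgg
Ubl7, chr9:57910736-57911035, plus strand: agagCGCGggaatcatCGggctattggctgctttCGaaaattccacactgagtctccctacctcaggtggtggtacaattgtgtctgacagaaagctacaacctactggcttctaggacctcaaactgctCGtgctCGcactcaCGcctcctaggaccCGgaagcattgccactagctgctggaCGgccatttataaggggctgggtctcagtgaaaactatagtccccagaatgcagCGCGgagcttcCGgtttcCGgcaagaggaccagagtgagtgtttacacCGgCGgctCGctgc

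The Islr window held 1 CG dinucleotide, and 85.9% of the 32851 windows of all genes held more. The Stra6 window shown held 5, with a median of 7 over all windows, and the other Stra6 windows held 10, 5 and 5. Pml had 11, Stoml1 11, Ubl7 16, Sema7a 23 and the 3 windows of Islr2 14, 6 and 11. Base composition was close to that of promoters in general, with 57% G and C for Islr and 55.7% for the Stra6 window against a median of 52.7%. The Islr window was thus the poorest in CG of the 12 member windows, whereas the 4 neighbours with a single window were all above the median.

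Short motifs were searched on both strands and are letters only, not sites. The nuclear receptor half-site AGGTCA, through which retinoic acid receptors bind in pairs, was in none of the 12 member windows and in 16.3% of all windows. An interferon response core, GAAA followed after any 2 bases by GAAA (3.44% of all windows), and the STAT site TTCNNNGAA (8.3%) were in none of the 12 either. The GC box GGGCGG was in 3 of the 4 Stra6 windows and not in that of Islr, and 35.7% of all windows held it. Of the member windows TATAAA was found only in that of Ubl7, and 13.6% of all windows held it. No motif searched was thus shared by the Islr window and the Stra6 window shown.

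The sort and the arrays set limits for every value below. Array medians over all genes lay between 5.22 and 5.34 in NOD and between 5.18 and 5.24 in NOD.Drak2-/-, on the log2 scale of RMA. RMA is the method that corrects background, normalizes arrays and summarises the probes of a row. Background was read from 23 antigenomic rows, whose probes have no target in the genome. Their median per array lay between 2.74 and 2.83 in NOD and between 2.74 and 2.98 in NOD.Drak2-/-. The brightest row lay between 5.51 and 6.06 in NOD and between 5.55 and 6.77 in NOD.Drak2-/-, with 6.52 and 6.77 in NOD.Drak2-/- replicates 1 and 2. Hybridization controls, spiked in before the arrays were incubated, ran from 9.30 to 9.90 in NOD and from 9.14 to 10.84 in NOD.Drak2-/-. T cell markers were bright, with Cd3e at 11.03 ± 0.05 and Cd4 at 9.67 ± 0.24 in NOD (SD, n = 6), and so was the regulatory T cell gene Ctla4 at 9.81 ± 0.19. Il2ra, which encodes CD25, averaged 4.82 in NOD and 5.00 in NOD.Drak2-/-, in the range of the background rows, and Foxp3 had no row named here. Stk17b itself averaged 10.52 ± 0.21 in NOD and 10.25 ± 0.15 in NOD.Drak2-/- (SD, n = 6), so its level does not check the labels. In RNA of sorted cells in bulk, fewer cells that express a gene and less RNA per cell cannot be told apart.

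Islr was lower in NOD.Drak2-/- by the widest margin of the 8. In NOD the 6 arrays ran from 5.97 to 6.80 with a median of 6.53 (log2). In NOD.Drak2-/- they ran from 4.26 to 5.39 with a median of 4.87. Every NOD.Drak2-/- array was thus below every NOD array, with a gap of 0.59 between the groups. The means were 6.42 ± 0.32 and 4.79 ± 0.40 (SD, n = 6), a log2 difference of -1.63 (SE 0.19, 95% interval -2.03 to -1.23), or 3.09-fold. Because Islr was chosen by this difference, its values are a description and carry no test.

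The Islr signal stood close to background. Of the NOD arrays 5 of 6 had Islr above their own brightest background row, the exception being replicate 2 with 5.97 against 6.02. Of the NOD.Drak2-/- arrays 0 of 6 did. In NOD between 22 and 23 of the 23 background rows lay below Islr, and in NOD.Drak2-/- between 15 and 20. With each NOD.Drak2-/- array held at its own brightest background row, the difference of the means shrank to 0.33 (log2), or 1.26-fold. Those rows ran from 5.55 to 6.77 and overlapped the NOD values of Islr, and no interval was computed for the 1.26-fold. How much of the 3.09-fold depends on background in the dim group cannot be read from these arrays.

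Stra6 was brighter and also lower in NOD.Drak2-/-. The NOD arrays ran from 7.33 (replicate 1) to 8.66 (replicate 2), with a median of 8.11. Those of NOD.Drak2-/- ran from 6.39 (replicate 2) to 7.20 (replicate 3), with a median of 6.96. The groups did not overlap, but the gap between them was only 0.14. The means were 8.11 ± 0.52 and 6.91 ± 0.28 (SD, n = 6), a log2 difference of -1.20 (SE 0.21, 95% interval -1.64 to -0.75), or 2.29-fold, again as a description. All 6 NOD arrays and 5 of 6 NOD.Drak2-/- arrays had Stra6 above their own brightest background row. The exception was NOD.Drak2-/- replicate 2, with 6.39 against 6.77, the brightest background row of the 12 arrays.

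Hybridization controls were brighter on 4 of the 6 NOD.Drak2-/- arrays than on any NOD array. These were replicates 1, 2, 5 and 7, with controls of 10.37, 10.84, 10.58 and 10.02. Replicate 3 had 9.14, below the NOD arrays, and replicate 4 had 9.42, within their range. Replicates 1, 2, 5 and 7 also had lower medians over all genes, each 5.18, where the lowest NOD array had 5.22. Their median background rows ran from 2.87 to 2.98, above the highest of NOD, 2.83. On replicates 3 and 4 Islr was 5.39 and 4.93, and Stra6 7.20 and 7.04, below every NOD array, but only replicate 4 had controls within the NOD range. The part of the controls, the array medians and the background in the differences was not tested. With both NOD.Drak2-/- arrays of the brightest background left out, Islr differed by -1.55 and Stra6 by -1.07.

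**Figure D1:**
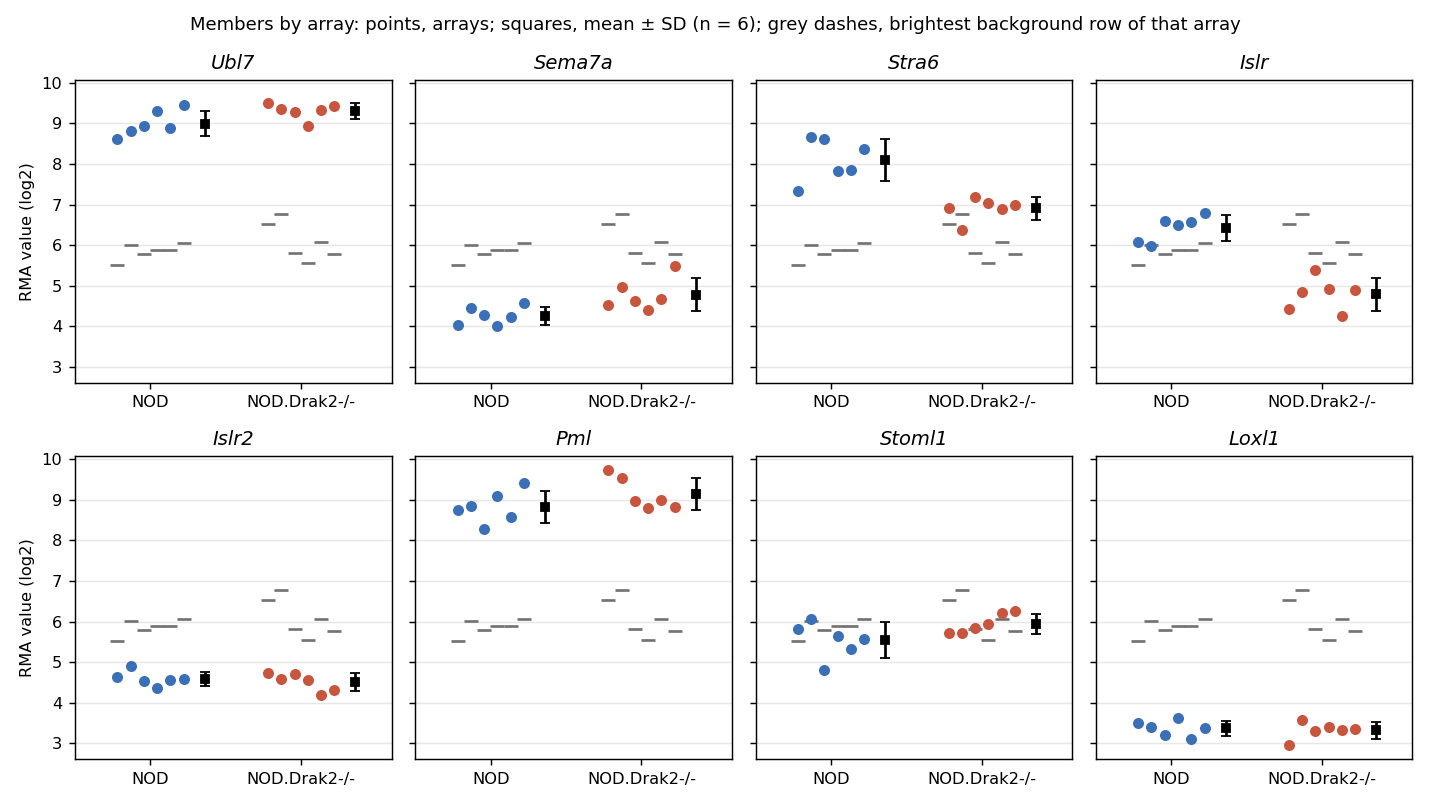
RMA values (log2) of the 8 members on each array, NOD in blue and NOD.Drak2-/- in red, with the mean ± SD of 6 arrays as black squares and each array's brightest background row as a grey dash; panels follow chromosome order. Islr (5.97 to 6.80 against 4.26 to 5.39) and Stra6 (7.33 to 8.66 against 6.39 to 7.20) are apart, while the other members overlap; levels are not comparable between genes.

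Of the 8 members, 1 (Islr) passed an adjusted p of 0.05 in limma, the linear model fitted to all genes with Benjamini-Hochberg adjustment, where 0.0205% of all genes passed, 0.0154% higher and 0.00513% lower in NOD.Drak2-/-. At an unadjusted p under 0.05 it was 5 of 8, where 9.43% of all genes passed. Stra6 did not pass after adjustment. It passed in 1 of the 12 fits that left out 1 array, the fit without NOD replicate 1, its dimmest NOD array. Islr passed in 12 of 12 such fits. The groups were apart for 2 of the 8, where 0.513% of all genes were apart. These counts, and the passes of Islr and Stra6 with 1 array left out, are of genes chosen by this comparison. Nothing is read from them.

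Of the 6 neighbours, 4 had a difference opposite in sign to those of Islr and Stra6, and none was as large. In all, 0 passed in limma (smallest adjusted p = 0.469, and 0.267 to 0.693 without 1 array), and 3, namely Sema7a, Stoml1 and Ubl7, had an unadjusted p under 0.05, all higher in NOD.Drak2-/-, as had 3.74% of all genes. These genes were chosen by place, on arrays whose results were known, and no more is read from the count. The largest neighbour difference was that of Sema7a, 0.52 (SE 0.17, 95% interval 0.16 to 0.88). Its NOD arrays ran from 4.00 to 4.57 with a median of 4.26, and its NOD.Drak2-/- arrays from 4.42 to 5.50 with a median of 4.65. The ranges overlapped, 6 of 6 NOD.Drak2-/- arrays were above the NOD mean, and replicate 7 was the highest. Sema7a was below the brightest background row on all 12 arrays.

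Ubl7 and Pml, on either side of the pair, were bright on all arrays. Ubl7 ran from 8.61 to 9.44 in NOD (median 8.92) and from 8.95 to 9.51 in NOD.Drak2-/- (median 9.35). The means of 8.999 ± 0.31 and 9.31 ± 0.19 (SD, n = 6) differed by 0.31 (SE 0.15, 95% interval 0.00 to 0.62). Pml ran from 8.29 to 9.40 in NOD (median 8.80) and from 8.79 to 9.74 in NOD.Drak2-/- (median 8.99). Its means of 8.83 ± 0.39 and 9.14 ± 0.39 differed by 0.32 (SE 0.20, 95% interval -0.10 to 0.74), less than its spread between arrays. The highest Pml values were those of NOD.Drak2-/- replicates 1 and 2, at 9.74 and 9.53, and without both arrays the difference was 0.08.

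Stoml1 lay at the edge of background and Islr2 and Loxl1 within it. Stoml1 ran from 4.81 to 6.07 in NOD and from 5.72 to 6.26 in NOD.Drak2-/-, a difference of 0.40 (SE 0.18, 95% interval 0.02 to 0.79), with 2 and 4 of 6 arrays above their brightest background row. Its lowest value was that of NOD replicate 3, without which the difference was 0.26. Islr2 ran from 4.36 to 4.90 and from 4.19 to 4.74, a difference of -0.08 (SE 0.12), and Loxl1 from 3.11 to 3.62 and from 2.96 to 3.57, a difference of -0.05 (SE 0.12). Neither had an array above its brightest background row, and Loxl1 changed sign to 0.01 when arrays were centred on their medians. Within background a difference in Islr2 or Loxl1 may not have been detectable.

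**Figure D2:**
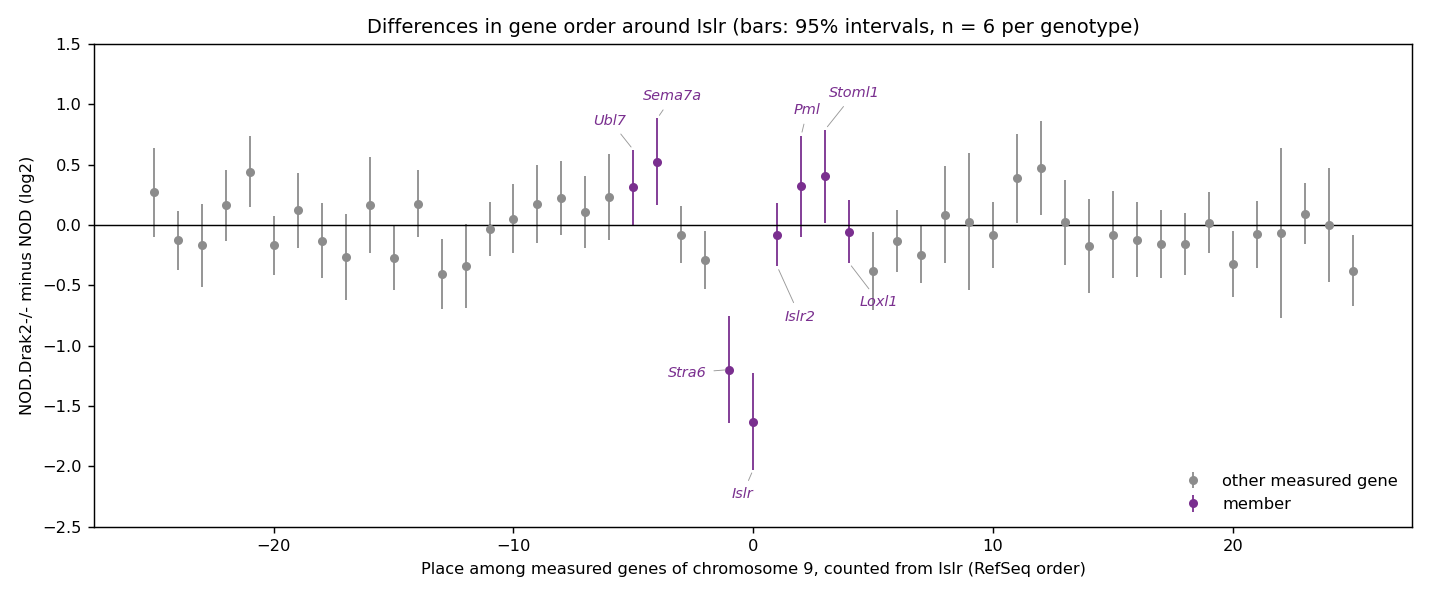
Log2 differences (NOD.Drak2-/- minus NOD) with 95% intervals for Islr and the 25 measured genes on each side of it, in RefSeq order; members are purple and other genes grey. Stra6 (-1.20) and Islr (-1.63) stand alone among genes between -0.41 and 0.52.

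The stretch around the pair was read gene by gene. Of the 50 measured genes around Islr, 25 on each side, 23 had a positive difference and 27 a negative one, with a median of -0.06, beside a median of -0.02 over all genes, of which 45.9% were positive. In limma 0 of the 50 passed, and 6 were higher and 8 lower at an unadjusted p under 0.05, beside 3.74% and 5.69% of all genes. The 50 include Stra6, chosen by this comparison, and the 6 neighbours. Without members, 19 of 43 had a positive difference, with 3 higher and 7 lower at that p. Apart from the members, the 43 others ranged from -0.41 to 0.47, and none of them had groups apart. The genes between Sema7a and Stra6 were Cyp11a1, a steroid-synthesis enzyme gene, and Ccdc33. Cyp11a1 averaged 3.11 in NOD and 3.03 in NOD.Drak2-/-, a difference of -0.08 (SE 0.11). Ccdc33, next to Stra6, ran from 6.18 to 6.64 and from 5.95 to 6.34, a difference of -0.29 (SE 0.11, adjusted p = 0.494 in limma). Outside the members, Clk3 and Arid3b beside Ubl7 differed by 0.11 and 0.23, and Tbc1d21 and Insyn1 beside Loxl1 by -0.38 and -0.13. Tbc1d21 had an adjusted p of 0.494 in limma, and those of the other 3 were higher.

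Whether Islr and Stra6 also vary together from mouse to mouse is a question that the choice of genes did not use. After each genotype's mean was removed, their Pearson r over 12 arrays was 0.22 (permutation p = 0.48 and, adjusted over the 28 pairs of members, p = 0.974) and Spearman's rho was 0.35 (permutation p = 0.274). Within NOD r was 0.19 (exact permutation p = 0.679) and within NOD.Drak2-/- 0.32 (exact permutation p = 0.532), over 6 arrays each. Spearman's rho was 0.09 within NOD and 0.83 within NOD.Drak2-/-, neither of which was tested. The value of 0.83 ranks Islr values that were above the brightest background row on 0 of 6 arrays. Over the 12 arrays, those high for Islr were thus not reliably high for Stra6. NOD replicate 2 had the lowest Islr and the highest Stra6 of its genotype, and without it r was 0.51 (permutation p = 0.0857). Without NOD replicate 1, low in both genes, r was 0.01. Leaving out the 2 arrays farthest from the median of the 12 Islr deviations, NOD replicate 2 and NOD.Drak2-/- replicate 5, gave 0.61. With 12 arrays the value is loosely bound, and a moderate correlation would not have been detectable.

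**Figure D3:**
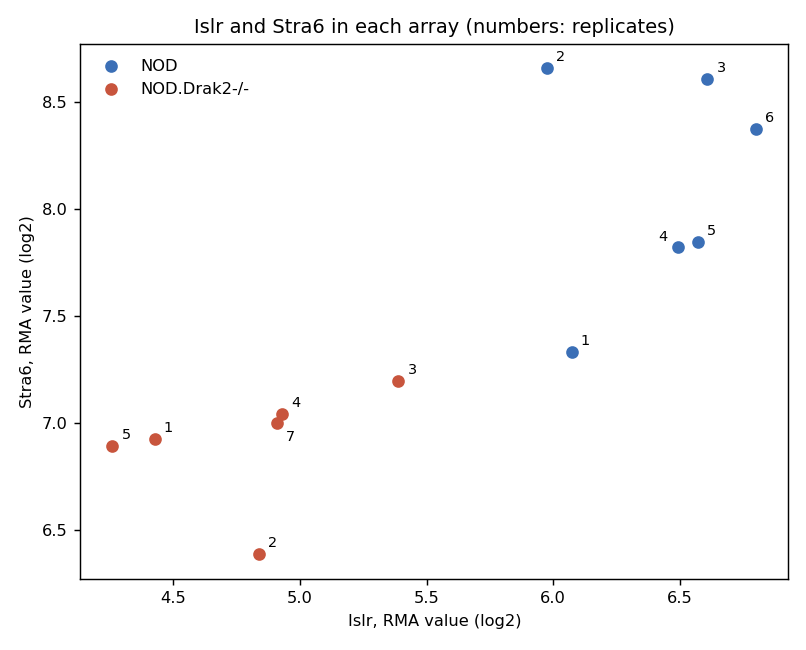
Stra6 against Islr (RMA values, log2), 1 point per array with its replicate number, NOD in blue and NOD.Drak2-/- in red. The genotypes form separate clouds, and within them r was 0.19 in NOD and 0.32 in NOD.Drak2-/- (Spearman's rho 0.09 and 0.83). NOD replicate 2 has the highest Stra6 (8.66) with the lowest NOD Islr (5.97).

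Many genes followed Islr or Stra6 more closely within genotypes than the pair followed each other. Of the 19504 other genes, 23.3% had a higher r with Islr than Stra6 had, and 29.4% a higher r with Stra6 than Islr had. The genes most like Islr over the 12 deviations were Sh3bp5 (r = 0.89), H3c7 (0.86), Fastk (0.86), Tomm40 (0.84) and Dnajc21 (0.83). Their genotype differences lay between -0.03 and 0.19 (log2). The genes most like Stra6 were Sema3a (r = 0.90), Chmp7 (0.89), Tent5c (0.88), C5ar1 (0.87) and Gpnmb (0.87), with differences between -0.20 and 0.05. Of these, Sema3a, C5ar1 and Gpnmb lay within background, with genotype means between 3.97 and 4.79. Both sets are the highest among named genes, with unnamed gene models left out, of 19504 correlations each. The correlations are over 12 points that share array-wide effects, and are given as a description. Among the members, r over the 28 pairs ran from -0.45 (Islr and Stoml1) to 0.63 (Pml and Ubl7), with 15 pairs positive. Only Pml and Ubl7 had an unadjusted p under 0.05 (permutation p = 0.0356), and 0 pairs passed after adjustment (smallest p = 0.974). Without the 2 arrays farthest from the median of the 12 Pml deviations, NOD replicate 6 and NOD.Drak2-/- replicate 1, their r was 0.38.

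**Figure D4:**
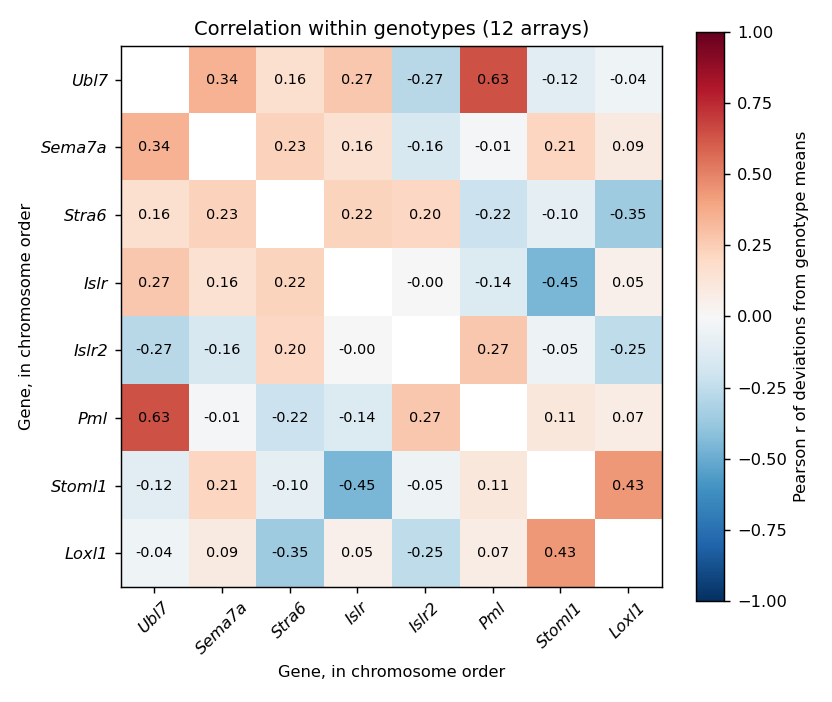
Pearson r between members over the 12 deviations from genotype means, with genes in chromosome order on both axes, blue negative and red positive. Values run from -0.45 to 0.63, and the Islr and Stra6 square is at 0.22.

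No retinoid pathway gene measured passed the test. Of 43 genes of retinol transport, conversion to retinoic acid, its receptors and response genes, 40 were measured. Only 16 of the 40 had a mean above the brightest background row. The list included the steroid enzyme gene Cyp11a1 but not Stra6, and its lowest difference was -0.38. In limma 0 passed, 1 was higher and 1 lower at an unadjusted p under 0.05, 18 had a positive difference, and the median was -0.04. Over all genes 3.74% were higher and 5.69% lower at that p, 45.9% were positive and the median was -0.02, the background for this and every list below. The retinoic acid receptor gene Rara, bright in both genotypes, averaged 7.81 ± 0.30 in NOD and 8.14 ± 0.27 in NOD.Drak2-/- (SD, n = 6), a difference of 0.33 (adjusted p = 0.527 in limma). Rxrg, a partner receptor gene, differed by -0.34 (adjusted p = 0.485 in limma) within background. The mean of the list per array ran from 5.72 to 5.81 in NOD and from 5.67 to 5.78 in NOD.Drak2-/-, so the ranges overlapped.

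Relatives of the other members gave no call in limma either. Leucine-rich repeat proteins with immunoglobulin domains, the relatives of Islr and Islr2, had 0 of 19 past the threshold and 2 lower at an unadjusted p under 0.05, with a median of -0.01. Only 4 of the 19 had a mean above the brightest background row. Lingo3 differed by -0.55 (adjusted p = 0.394) and Lrrn2 by -0.33 (adjusted p = 0.485), Lingo3 within background. Of 26 measured PML body and SUMO genes 0 passed, 2 were higher at an unadjusted p under 0.05, and the median was 0.03. The PML partner gene Daxx differed by 0.50 and the interferon-induced exonuclease gene Isg20 by 0.42 (each adjusted p = 0.517). Semaphorins and their receptors had 8 of 29 positive with a median of -0.14 and 0 passed, beside 45.9% positive and a median of -0.02 over all genes. Only 6 of the 29 had a mean above the brightest background row. The Sema7a receptor gene Plxnc1 averaged 9.41 and 9.11, a difference of -0.30 (adjusted p = 0.515), and Sema4c differed by -0.29 (adjusted p = 0.517). They were the 2 of the 29 with an unadjusted p under 0.05, where 5.69% of all genes were lower at that p, and Sema4c lay within background.

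Elastic fibre genes, the partners of Loxl1, had 4 of 18 positive, a median of -0.19 and 4 lower at an unadjusted p under 0.05, with 0 passed in limma, beside 45.9% positive, a median of -0.02 and 5.69% lower over all genes. Only 2 of the 18 had a mean above the brightest background row, and Fbln2 (-0.42, adjusted p = 0.469) and Loxl4 (-0.40, adjusted p = 0.481) were not among them. Of 9 stomatin family genes 0 passed, 1 was higher at an unadjusted p under 0.05, and the median was -0.03. A mean above the brightest background row was found for 5 of the 9. Erlin2, of the endoplasmic reticulum, differed by 0.86 (adjusted p = 0.444) and Stoml3, within background, by -0.43 (adjusted p = 0.535). Of 11 ubiquitin-like and ubiquitin-binding shuttle genes 0 passed in limma, 1 was higher at an unadjusted p under 0.05, 8 were positive, and the median was 0.07. Ubac1 differed by 0.40 (adjusted p = 0.517) and Ubqln2 by 0.36 (adjusted p = 0.549).

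Markers of stromal cells, in which Islr is best known, overlapped between genotypes. Stromal markers, 24 of 25 measured, averaged from 4.54 to 4.82 per array in NOD and from 4.47 to 4.69 in NOD.Drak2-/-, overlapping ranges below the brightest background row of every array. Of the 24, 4 had a mean above the brightest background row, 8 had a positive difference, 0 passed in limma, and 1 was higher and 1 lower at an unadjusted p under 0.05. Their brightest gene, Serpinf1, averaged 7.63 ± 0.15 in NOD and 7.37 ± 0.18 in NOD.Drak2-/- (SD, n = 6), a difference of -0.27 (adjusted p = 0.512 in limma). The chemokine gene Cxcl13 differed by 0.78 (adjusted p = 0.469) within background. Endothelial markers averaged from 4.25 to 4.54 and from 4.24 to 4.35, with 0 of 14 past the threshold and 0 at an unadjusted p under 0.05. Beside 45.9% positive and a median of -0.02 over all genes, 2 of these 14 markers were positive, with a median of -0.08. Pecam1, which T cells can also express, was their only gene above background, at 9.12 and 9.23. Cdh5 and Emcn differed by -0.31 and -0.10.

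Markers of other blood cells likewise overlapped between genotypes as lists, and 0 genes of these lists passed in limma. Only 1 of 11 B cell, 1 of 16 myeloid and dendritic and 4 of 11 CD8 and natural killer markers had a mean above the brightest background row. Of T cell markers 12 of 12 did, and of regulatory T cell markers 16 of 17. Blk, Csf1r and Gzma, named below, lay within background in both genotypes. B cell markers (11 measured) averaged from 4.81 to 5.06 in NOD and from 4.68 to 5.37 in NOD.Drak2-/-, with Cd79b at 0.48, Blk at -0.30, and 1 gene higher and 2 lower at an unadjusted p under 0.05. Myeloid and dendritic markers (16) averaged from 4.03 to 4.29 and from 4.13 to 4.55, with Csf1r at 0.55, Cybb at 0.76, and 2 higher and 1 lower at that p. CD8 and natural killer markers (11) averaged from 4.56 to 4.92 and from 4.63 to 5.10, with Nkg7 at -0.67, Gzma at 0.60, and 2 higher and 1 lower. T cell markers (12) averaged from 9.97 to 10.20 and from 10.02 to 10.36, with Thy1 at 0.99 (adjusted p = 0.339 in limma), Cd247 at 0.35, and 1 higher and 0 lower. Regulatory T cell markers (17) averaged from 8.92 to 9.24 and from 8.93 to 9.25, with Entpd1 at 0.33 and Ctla4 at -0.21, 8 of 17 positive, a median of -0.00 and 0 genes at that p. The part of other cells in the Islr and Stra6 differences was not tested.

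**Figure D5:**
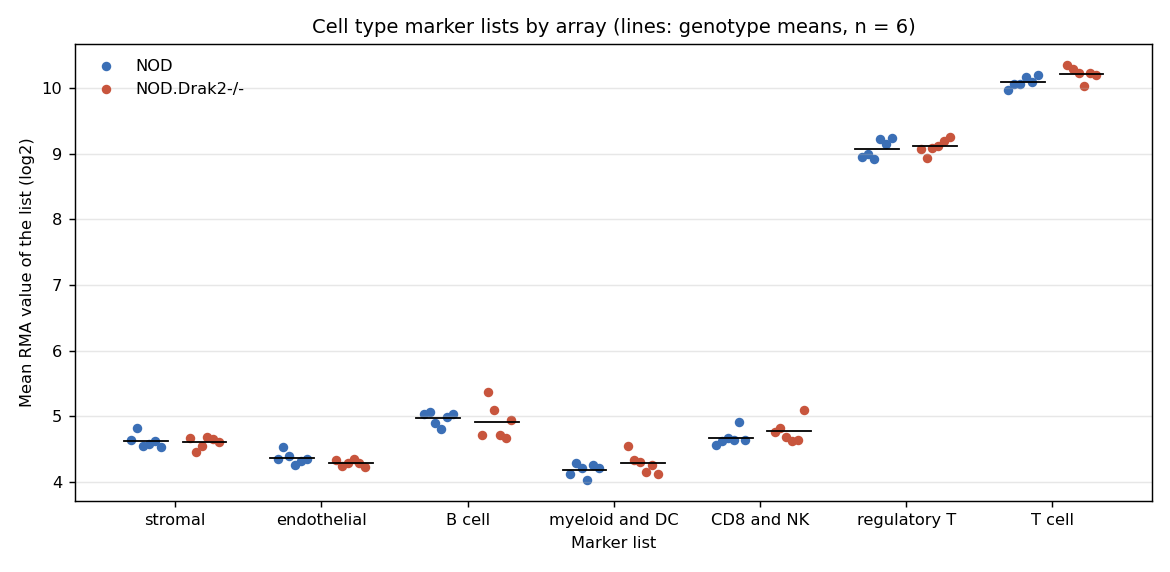
Mean RMA value (log2) of each cell type marker list on each array, NOD in blue and NOD.Drak2-/- in red, with lines at the genotype means (n = 6). The genotypes overlap in every list; stromal markers lie at 4.54 to 4.82 in NOD and 4.47 to 4.69 in NOD.Drak2-/-.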

How the data were processed

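The deposited table holds log2 values made by the authors with RMA and the R package oligo, per the submitters' processing notes, with versions and genome build not given in the sources used here. Arrays carry no counts, so their number limits the precision. Rows with 1 gene symbol in the platform annotation were kept (19572), and the brightest row of a gene stood for it (19505 genes, all matched to RefSeq assembly GRCm38.p6 for gene order). Both genotypes entered a linear model without covariates in limma 3.58.1 (R 4.3.3), moderated with eBayes, with Benjamini-Hochberg adjustment over all genes and a threshold of 0.05. The step was checked on simulated data. Within-genotype correlations used 100000 permutations of arrays within genotype, or all permutations of 6 arrays, two-sided. Named beside the members are the 5 genes most correlated with each of Islr and Stra6, leaving out unnamed gene models. The genes between and beside the members are named too. Of each of the 14 lists, the 2 with the smallest p are named. So are the brightest stromal and endothelial gene and Cd3e, Cd4, Il2ra and Ctla4. Other genes were named after their values were seen. The members and lists were chosen with earlier results of these data known. Replicate numbers 1 to 5 occur in both genotypes, but deviations of same-numbered arrays correlated between -0.18 and 0.09, so the numbers were not taken to pair the mice. Alternatives changed the scaling, the filter, the rows, the model and the arrays.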

Additional observations from a re-analysis of the deposited data

Results flagged for a closer look

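Stra6 in NOD.Drak2-/- replicate 2, at 6.39 (log2), stood apart from the other 5 arrays of its genotype, whose lowest value was 6.89. The gap to its neighbour over the whole range was 0.626, just past Dixon's 95% critical value for 6 samples. Of the 16 groups of 6 arrays checked (8 genes in 2 genotypes) this was the only one past it, and chance flags about 1 in 20. The same array had the brightest background row of the 12 (6.77) and the highest hybridization controls (10.84), and their part in the value was not tested. Without it the Stra6 difference was -1.09 in place of -1.20.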

How the results depend on the processing

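The differences of the 8 members moved by less than the spread between arrays under every alternative that could be run. Leaving out 1 array gave -1.75 to -1.52 for Islr and -1.35 to -1.09 for Stra6, and the other settings -1.63 to -1.55 and -1.25 to -1.05. The median difference of the 50 genes around Islr lay between -0.09 and 0.03. The count of members past the threshold was 1. It was 0 with the filter on dim genes, which left 8143 genes and removed Islr, Islr2, Loxl1 and Sema7a (limma, 2 of the 4 members left at an unadjusted p under 0.05). With the replicate block on numbers 1 to 5 it was 0 too (limma, 4 members at an unadjusted p under 0.05), and without the block 1 on the same arrays. Leaving out 1 array gave 1 to 2, with 2 (Islr and Stra6) without NOD replicate 1. Over all genes 4 passed, 1 to 2 in those fits, 2 without both NOD.Drak2-/- arrays of brightest background (chosen after seeing the data), 0 with the filter (740 at an unadjusted p under 0.05) and 0 with the block (1519), which pairs mice that share only a number. The within-genotype correlation of Islr and Stra6 stayed above the threshold in p and between 0.01 and 0.51 without 1 array. With the replicate block it turned to -0.59 (exact permutation p = 0.308, over 5 numbers). The cause was not tested. Signal near background limits Islr, Islr2, Loxl1, Sema7a and Stoml1.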
